A study of Homo sapiens with 2 samples.

Results

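The genes described here carry zinc across membranes or bind it inside the cell: the SLC30 exporters, the SLC39 importers, the metallothioneins and MTF1, the transcription factor that senses zinc. They were picked by a rule on gene symbols, from probe sets that the platform annotation pairs with 1 symbol. Earlier results of these data were known when the rule was chosen. The rule found 37 probe sets of 21448, each for a different gene: 10 SLC30 genes, 14 SLC39 genes, 12 metallothionein genes or pseudogenes and MTF1. The RNA came from MKN1, an established line of human gastric adenosquamous carcinoma, made to overexpress either wild-type RHOA or RHOA Y42C. RHOA, a small GTPase, drives actomyosin contraction through its kinases, and Y42C is a substitution of this protein found in gastric cancer. Both lines received a pBABE vector and were selected with puromycin, so the control also carries extra RHOA, and the series holds no parental or empty-vector array. The labels do not say whether each line was a clone or a pool of cells. Total RNA from cells grown in RPMI with serum was hybridised to 1 Affymetrix array per line. With 1 array per line there is no replicate, so every difference below compares these 2 lines without an error, a test or a p-value.

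Free zinc in the cytosol is held low by a small set of proteins. SLC30 (ZnT) proteins move zinc out of the cytosol, across the plasma membrane or into vesicles and the Golgi. SLC39 (ZIP) proteins move it into the cytosol from outside or from organelles. Metallothioneins are short cysteine-rich proteins that bind zinc, copper and cadmium in the cytosol. MTF1 binds zinc, enters the nucleus and activates metallothionein genes and SLC30A1 through metal response elements, while it lowers SLC39A10.

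Values are the deposited signals per probe set, taken as log2 because of their range of 2.23 to 18.16; no source used here states the base, so all folds rest on that reading. All differences are Y42C minus wild-type. The signal of 349 olfactory receptor genes, which a gastric line should not use, set a minimum at their 95th percentile: 5.17 on the wild-type and 5.14 on the Y42C array. Reaching it on either array were 11802 of 17687 genes. The number of arrays limits the precision, and the array medians over all probe sets were 6.42 and 6.36. RHOA itself read 16.47 and 16.30. The keratins KRT8 (17.96 and 17.94), KRT18 and KRT19 and the epithelial surface gene EPCAM were bright on both arrays, while CDH1 lay below the minimum on both (3.92 and 3.86). The epithelial list ran from ELF3 (5.59 and 4.88) to CLDN4 (8.80 and 9.49) in its differences. Of 5 fibroblast genes, COL1A1 alone passed the minimum (6.05 and 5.84). Of 6 leukocyte genes, 5 passed it. The summed signal of the 6 was 10.91 and 10.45 on the log2 scale, and CD68, the brightest of them, read 10.66 and 10.15. CD14 was lower with Y42C (7.45 and 5.67) and NKG7 higher (6.13 and 6.77). CD3E (4.70 and 5.67, at least 1.41-fold higher) and PTPRC, the defining marker (4.61 and 5.39, at least 1.16-fold), passed the minimum with Y42C only. The part of these markers in the differences below was not tested.

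Of the 37 genes, 31 passed the minimum, and 6 did not reach it on either array. The split ran by family. All 11 metallothioneins above the minimum had higher signal in the Y42C array, by 0.52 to 1.55 on the log2 scale, against 45.2% of all genes with a positive difference. The 19 transporters above it lay between -0.74 and 0.66, and 0 of them differed by 2-fold in either direction. At least 2-fold higher were 4 of the 31 members, against 7.46% of all genes above the minimum, and 0 of 31 were at least 2-fold lower, against 9.80%. The 4 were MT1E, MT1L, MT1G and MT1M.

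**Figure D1:**
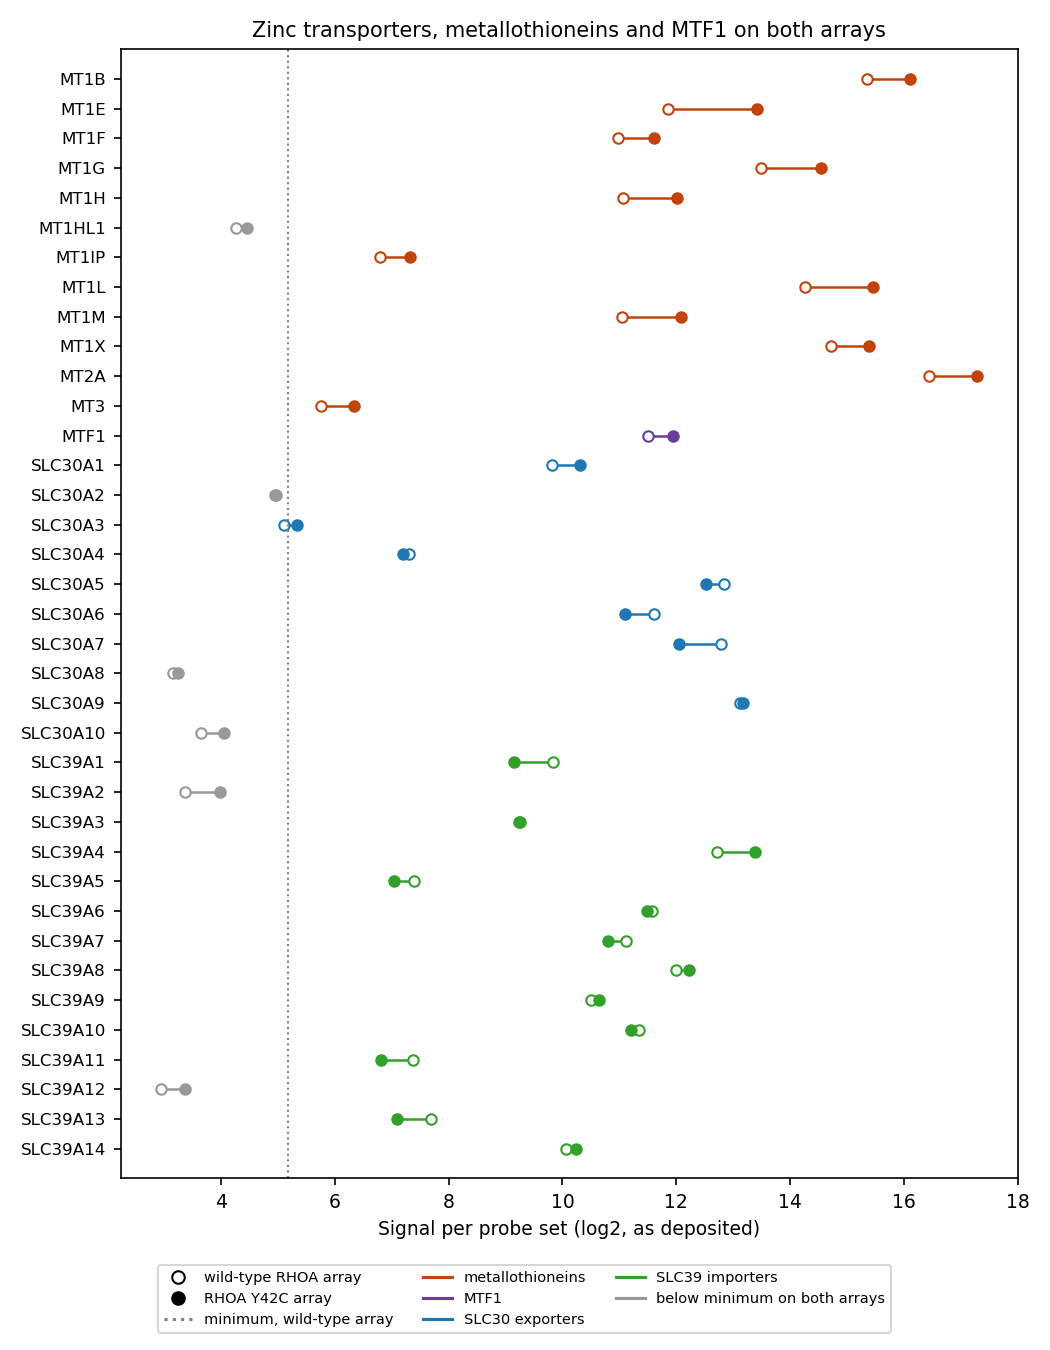
Deposited log2 signal (x axis) of the 37 members (rows) on the wild-type array (open circles) and the Y42C array (filled circles), joined by a line coloured by family, with grey for the 6 members below the minimum on both arrays and a dotted line at the wild-type minimum of 5.17. Each coloured metallothionein has its filled circle to the right of its open one, while the transporters point both ways.

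Metallothionein signal was higher in the Y42C line for every gene of the family above the minimum. Their median difference was 0.85 over 11 genes, against -0.07 over all genes above the minimum. At least 1.5-fold higher were 9 of the 11, against 17.8% of all genes. In RNA from a whole culture, more transcript per cell and more cells that carry it cannot be told apart. Because metallothionein sequences are nearly the same, one probe may read several of them, and these values are not separate observations of the family.

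MT2A is the broadly expressed isoform of human cells. It read 16.44 with wild-type RHOA and 17.29 with Y42C, 1.80-fold higher, close to the top of the range of the array. MT1X, another widely expressed isoform, read 14.71 and 15.39 (1.60-fold). Both lie under 2-fold.

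MT1E, an isoform of the MT1 group, had the largest difference of the family. It read 11.86 and 13.41, which is 2.93-fold higher in the Y42C array, and 278 of the 11802 genes had a larger positive difference. MT1L, which RefSeq lists as a transcribed pseudogene, read 14.27 and 15.46 (2.28-fold). The neighbouring genes MT1G and MT1M gave 13.49 and 14.55 (2.08-fold) and 11.05 and 12.09 (2.06-fold). MT1H lay just under the threshold at 11.07 and 12.02 (1.93-fold), with a difference of 0.95 beside 1.04 for MT1M just above it. It passed 2-fold once the arrays were centred (1.01) or a trend on level was removed (1.03).

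The remaining isoforms differed less than MT1H. MT1B read 15.35 and 16.10 (1.68-fold) and MT1F 10.98 and 11.61 (1.55-fold). The pseudogene MT1IP was dimmer, at 6.80 and 7.32 (1.43-fold). MT3, the growth-inhibitory isoform best known from brain, was near the minimum at 5.75 and 6.33 (1.49-fold). MT1HL1, a copy of MT1H outside the cluster, was below the minimum on both arrays (4.27 and 4.46), so no fold is given.

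The spread of the differences was smaller among bright genes, so the family was also read against genes of like level. Of the metallothioneins, 9 had a mean signal of at least 10, and their median difference was 0.95. All 9 were at least 1.5-fold higher, against 17.1% of the 4181 genes at that level, and 4 were at least 2-fold higher, against 7.32%. The 5 members with a mean of at least 14, namely MT1B, MT1G, MT1L, MT1X and MT2A, lay between 0.68 and 1.19. Among the 467 genes at that level the SD of the difference was 0.550, against 0.768 over all genes above the minimum. Of the 467, 12.8% were at least 1.5-fold and 4.71% at least 2-fold higher, and of the 5 members 5 and 2 were. Both levels were chosen after the values were seen, and members that may share probes are not separate counts beside these shares. Averaged to 1 value, the MT1 and MT2 genes above the minimum differed by 0.92.

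**Figure D2:**
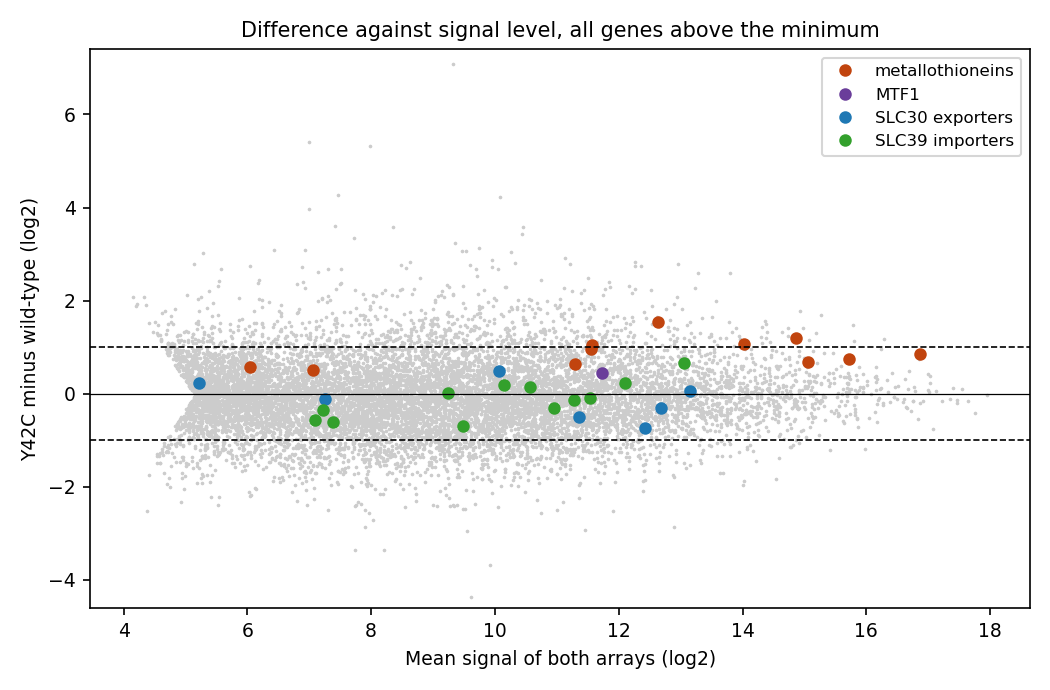
Difference between arrays (y axis, log2) against the mean signal of both arrays (x axis, log2) for the 11802 genes above the minimum (grey points), with the 31 members above it coloured by family and dashed lines at 2-fold. The metallothioneins all lie above 0, from 0.52 to 1.55, and 5 of them sit at the bright end where the grey cloud is narrow.

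The stretch before each metallothionein gene is shown because it holds the elements through which MTF1 and metals act on the family. RefSeq promoters (GRCh38.p14) matched 26 of the 37 members by symbol, among them 4 metallothioneins. All 4 lay under 2-fold with the deposited values, so no promoter is printed for the members that passed it. Printed 5′ to 3′ are the 250 bases before the gene start, all on the plus strand: MT2A at chr16:56608334-56608583, MT1B at chr16:56651636-56651885, MT1H at chr16:56669564-56669813 and MT1X at chr16:56682220-56682469. Capitals mark the metal response element core, searched as TGCACNC and TGCGCNC on both strands.
MT2A: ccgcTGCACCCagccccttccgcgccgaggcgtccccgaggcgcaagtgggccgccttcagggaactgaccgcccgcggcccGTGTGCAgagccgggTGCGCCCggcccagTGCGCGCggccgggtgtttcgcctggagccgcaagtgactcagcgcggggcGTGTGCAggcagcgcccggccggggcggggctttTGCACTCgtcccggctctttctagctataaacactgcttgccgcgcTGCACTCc
MT1B: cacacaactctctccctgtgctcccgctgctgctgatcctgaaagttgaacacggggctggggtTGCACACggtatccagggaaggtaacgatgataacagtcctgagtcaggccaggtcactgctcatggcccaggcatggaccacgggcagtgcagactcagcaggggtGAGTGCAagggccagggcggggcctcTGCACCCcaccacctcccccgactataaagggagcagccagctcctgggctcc
MT1H: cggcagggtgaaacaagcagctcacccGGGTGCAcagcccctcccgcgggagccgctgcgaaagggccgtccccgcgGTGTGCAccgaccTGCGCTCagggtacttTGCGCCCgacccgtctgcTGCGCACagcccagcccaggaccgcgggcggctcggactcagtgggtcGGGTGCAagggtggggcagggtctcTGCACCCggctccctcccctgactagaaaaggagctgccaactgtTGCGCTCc
MT1X: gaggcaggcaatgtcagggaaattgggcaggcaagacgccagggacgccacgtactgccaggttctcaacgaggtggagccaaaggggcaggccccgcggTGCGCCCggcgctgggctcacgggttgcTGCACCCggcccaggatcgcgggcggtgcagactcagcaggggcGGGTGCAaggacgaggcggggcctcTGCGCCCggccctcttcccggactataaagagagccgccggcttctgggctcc
The core occurred 7 times before MT2A, 3 times before MT1B, 8 times before MT1H and 4 times before MT1X, with no overlap between matches. At least 3 separate matches stood in 1.05% of the 35116 promoters searched in the same way, and at least 1 in 24.8%. The 4 windows held 62.4% to 73.2% G or C, and those promoters were not matched for this. MT1B, MT1H and MT1X each had a core on the gene strand starting at -53, and MT2A had one at -54. A core on the opposite strand began at -79 in MT1B and at -78 in MT1H and MT1X. The TATA box, searched as TATAAA on the gene strand, started at -30 in MT1B and MT1X and at -29 in MT2A, against 6.80% of all promoters with a match anywhere in the window. MT1H held no TATAAA. The 4 genes differed by 0.85, 0.75, 0.95 and 0.68 in the order printed, and a match of letters does not show binding.

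**Figure D3:**
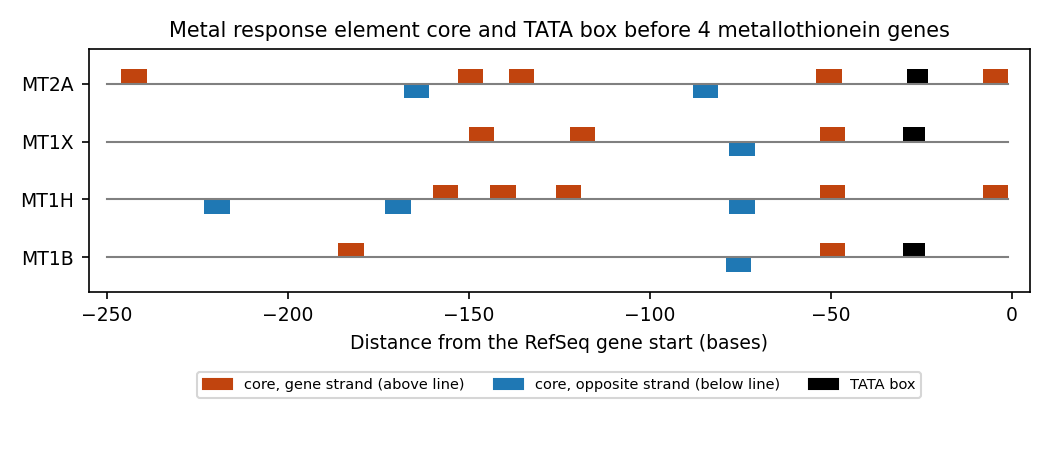
Matches of the metal response element core in the 250 bases before the start of MT2A, MT1X, MT1H and MT1B (x axis, distance from the RefSeq start in bases), with boxes above the line for the gene strand, boxes below it for the opposite strand, and black boxes for the TATA box. A box on the gene strand at -53 or -54 recurs in all 4 genes, and the TATA box in 3 of them.

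Promoters of the transporters held 0 to 3 cores, beside 3 to 8 in the 4 metallothionein promoters. Of 11 SLC30 promoters, some of them alternative starts of 1 gene, 6 held at least 1, against 24.8% of all promoters searched. That of SLC30A2 held 3, as many as MT1B, against 1.05% of all promoters with at least 3. Of 19 SLC39 promoters 5 held 1 each, close to the 24.8% of all promoters. SLC30A1, a known target of MTF1, had 1, and MTF1 had 0.

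The metallothionein genes stand side by side on chromosome 16, so their neighbours were read as well. The 12 metallothionein genes of the cluster with a value, MT4 included, all had higher signal in the Y42C array. MT4, the isoform of stratified epithelium, lay near the minimum (5.18 and 6.02). The measured genes directly next to the cluster were lower: BBS2 by 1.42-fold (8.0 and 7.49) on the side of MT4, and NUP93 by 1.96-fold (12.11 and 11.14) on the side of MT1X. Of the 10 nearest genes with a value on either side, 14 passed the minimum. Of these, 6 were higher and 8 lower, close to the 45.2% and 54.2% of all genes, with a median of -0.27 against -0.07. At least 2-fold higher were 3 of the 14, against 7.46% of all genes, and 1 was at least 2-fold lower, against 9.80%. The 3 were LPCAT2 (11.92 and 13.42, 2.83-fold), SLC12A3 (7.36 and 9.58, 4.66-fold) and CPNE2 (8.72 and 11.39, 6.36-fold), and the lower one was NUDT21 (12.75 and 11.66, 2.13-fold). The run of positive differences thus ended at the nearest measured gene on both sides. Metallothioneins that may share probes are not separate observations within that run.

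**Figure D4:**
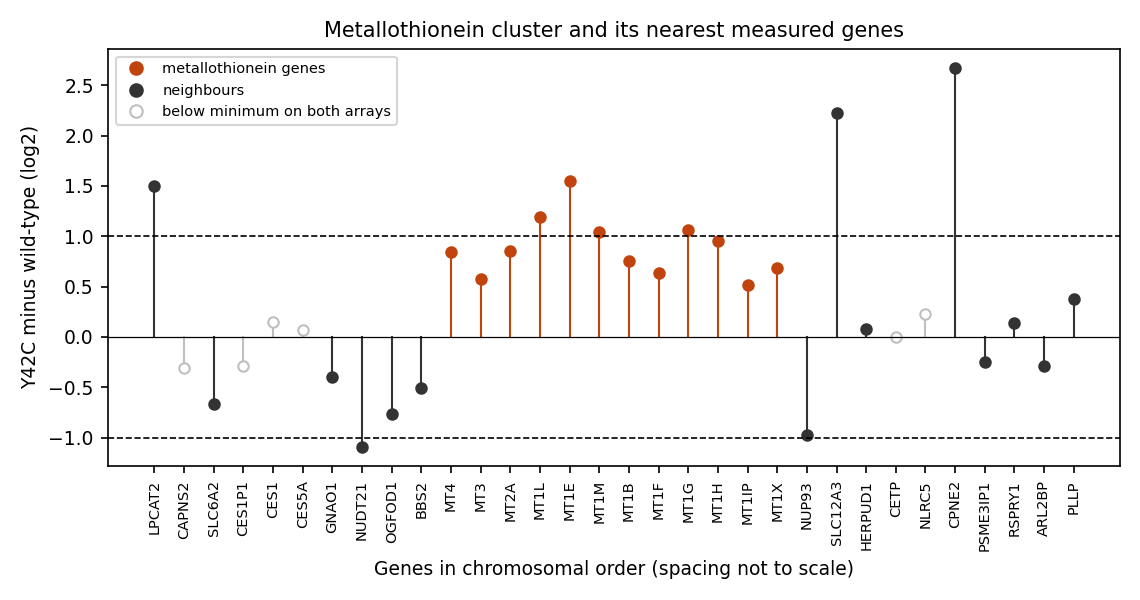
Difference between arrays (y axis, log2, Y42C minus wild-type) for the metallothionein genes and the 10 nearest genes with a value on either side, in chromosomal order (x axis, spacing not to scale), with dashed lines at 2-fold and open grey points for genes below the minimum on both arrays. All 12 metallothionein points lie above 0, while BBS2 (-0.51) and NUP93 (-0.97) next to them lie below.

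MTF1, the zinc-sensing activator of these genes, differed by less than 2-fold. It read 11.50 with wild-type RHOA and 11.95 with Y42C, a difference of 0.45 (1.37-fold), and 2642 of 11802 genes had a larger positive difference. SLC30A1, the exporter of the plasma membrane that MTF1 induces, read 9.82 and 10.31, a difference of 0.49 (1.40-fold). SLC39A10, the importer that MTF1 lowers, read 11.34 and 11.20 (-0.14). None of these 3 passed 1.5-fold.

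The SLC30 exporters had a median difference of -0.12 over the 7 genes above the minimum, but 0.014 once a trend on level was removed and 0.045 with no minimum, so the sign of that median depends on the processing. The 3 members of the early secretory pathway, which load zinc into the Golgi for enzymes made there, had the lowest differences of the 7. SLC30A7 had the lowest difference of all members, at 12.79 and 12.05 (1.67-fold lower). SLC30A6, which carries no zinc alone and pairs with SLC30A5, read 11.61 and 11.10 (1.42-fold lower). SLC30A5 read 12.83 and 12.53 (1.23-fold lower).

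The other exporters stayed closer together. SLC30A9, a divergent member linked to mitochondria, read 13.12 and 13.18. SLC30A4, a vesicle exporter, read 7.31 and 7.19, and its difference of -0.12 became 0.01 once a trend on level was removed. SLC30A3, the synaptic vesicle exporter, passed the minimum in the Y42C array only (5.10 and 5.33). Below it on both arrays were SLC30A2 (4.94 and 4.97), known from milk secretion, SLC30A8 (3.15 and 3.25), the exporter of insulin granules, and SLC30A10 (3.65 and 4.06), a manganese exporter.

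The SLC39 importers also had a median of -0.12, over 12 genes, against -0.07 over all genes above the minimum. Of the 12, 5 were higher and 7 lower, close to the 45.2% and 54.2% of all genes. SLC39A4, the zinc importer of the intestine whose loss causes acrodermatitis enteropathica, had the highest difference among the transporters. It read 12.72 and 13.38, which is 1.58-fold higher in the Y42C array. SLC39A1, a broadly expressed importer, was at the other end at 9.84 and 9.14 (1.62-fold lower). SLC39A2 (3.37 and 3.99) and SLC39A12 (2.95 and 3.37) were below the minimum on both arrays.

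Importers known to carry manganese or iron beside zinc differed little: SLC39A8 read 11.99 and 12.22, and SLC39A14 read 10.06 and 10.24. SLC39A6, a LIV-1 protein tied to oestrogen response, read 11.58 and 11.49, and SLC39A3 read 9.24 and 9.25. SLC39A5, which sits on the basolateral side of epithelia, read 7.39 and 7.04. The 8 measured members of the LIV-1 subfamily, the importers with a long extracellular domain, ran from -0.60 to 0.66, with a median of -0.12.

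Importers of internal membranes were mostly lower in the Y42C array. SLC39A13, which releases zinc from vesicles and the Golgi, read 7.69 and 7.09 (1.52-fold lower). SLC39A11 read 7.38 and 6.81 (1.48-fold lower), and SLC39A7, which releases zinc from the endoplasmic reticulum, 11.11 and 10.80 (1.24-fold lower). SLC39A9 was the exception at 10.50 and 10.64. With the 3 SLC30 exporters of the early secretory pathway they form a list of 7 genes, of which 6 were lower, against 54.2% of all genes above the minimum, and 2 at least 1.5-fold lower, against 23.4%. The list's median was -0.51, against -0.07 over all genes. None of the 7 reached 2-fold.

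**Figure D5:**
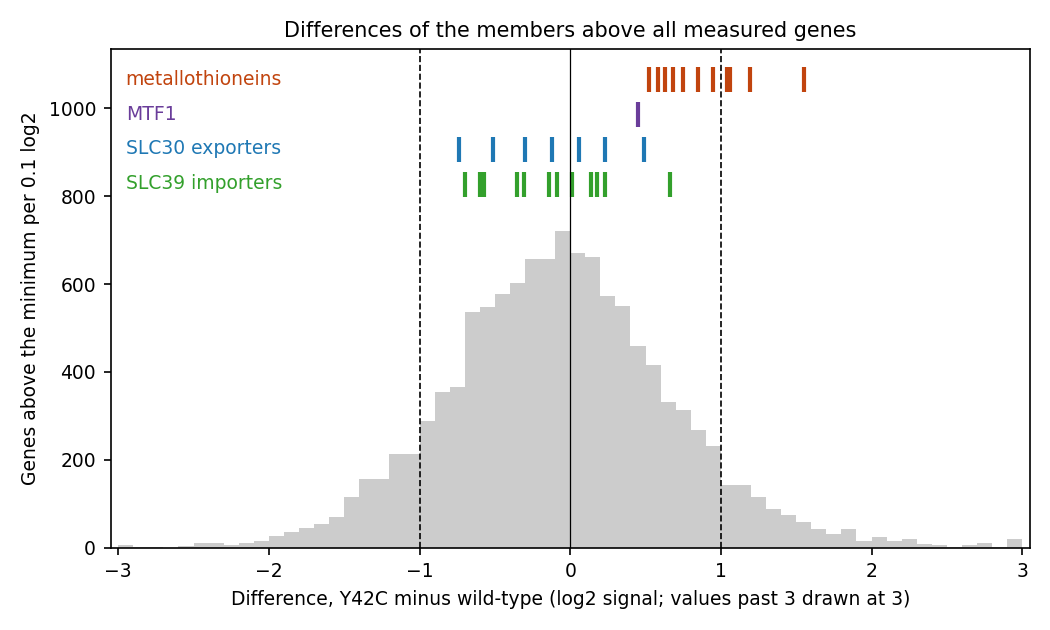
Differences between arrays (x axis, log2, Y42C minus wild-type) of the 31 members above the minimum, as coloured ticks by family, over a histogram of all 11802 genes above the minimum (y axis, genes per 0.1 log2), with dashed lines at 2-fold. The metallothionein ticks lie between 0.52 and 1.55, the transporter ticks between -0.74 and 0.66.

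Other genes that handle or use zinc were read from separate lists, against the same shares of all genes above the minimum: 7.46% at least 2-fold higher, 9.80% at least 2-fold lower, 45.2% higher and 54.2% lower by any amount, and a median of -0.07. Of 9 measured genes of zinc handling and sensing, 1 passed 2-fold in each direction, close to the shares of all genes, and the median was 0.15. The higher one was GPR39, a receptor that zinc activates (6.98 and 8.21, 2.35-fold). The lower one was ZNF658, a zinc-dependent transcriptional regulator, which was below the minimum in the Y42C array (5.35 and 4.10), so the fold is at least 1.16-fold lower. Calprotectin, which binds zinc outside cells, is made of S100A8 (7.06 and 6.37) and S100A9 (8.97 and 8.17).

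Among 7 measured zinc enzymes of the cell surface and secretory pathway, 3 passed 2-fold upward with Y42C and 0 downward, against 7.46% and 9.80% of all genes. All 3 were alkaline phosphatases, enzymes that take up zinc in the secretory pathway. ALPP, the placental form, read 14.54 and 15.84 (2.46-fold), ALPG, the germ cell form, 15.70 and 16.88 (2.27-fold), and ALPI, the intestinal form, 5.24 and 6.28 (2.06-fold). Their sequences are close enough that probes may read more than 1 of them. The wild-type value of ALPI lay near the minimum of 5.17. Another alkaline phosphatase of the list, ALPL, was below the minimum on both arrays (3.18 and 3.11). At the lower end stood NT5E, an ectonucleotidase, at 13.73 and 13.37. The median of the list was 0.21, and under other settings it ran from -0.04 with no minimum to 0.695 with the array median as minimum, so it has no stable size or sign.

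Metallothioneins also bind copper and respond to metal and oxidative stress, and lists for these were read as well. Of 12 copper-handling genes, 8 were lower, against 54.2% of all genes, with a median of -0.38 against -0.07. The copper chaperones SCO1 (12.16 and 11.07, 2.13-fold) and CCS (8.59 and 7.59, 2.0-fold) passed 2-fold downward, 2 of 12 against 9.80% of all genes, and 0 genes passed it upward. CCS lay at the threshold itself, with a difference of -1.0, and centring the arrays takes it under 2-fold. COX19, a mitochondrial copper protein, was the highest of the list: it passed the minimum in the Y42C array only (5.16 and 5.93). Of 10 metal and oxidative stress genes 8 were lower, against 54.2% of all genes, with a median of -0.46, and of -0.26 with no minimum or one at the 90th percentile. At least 2-fold lower were 2 of the 10, against 9.80%. NQO1, a quinone reductase induced by oxidants, was 3.78-fold lower (11.67 and 9.75), and SELENOW, a selenoprotein, 2.11-fold (10.12 and 9.04). HSPA1A, a stress-induced chaperone, had the highest value of that list at 11.16 and 11.48, and HMOX1, the heme oxygenase that metals induce, lay below the minimum on both arrays (4.64 and 4.70).

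Glucocorticoids are another known inducer of metallothionein genes. Of 6 measured genes of that response, 2 were higher and 4 lower, close to the 45.2% and 54.2% of all genes, with a median of -0.18. In each direction 1 passed 2-fold, against 7.46% and 9.80%. NR3C1, the receptor, read 10.33 and 10.53. KLF9, an early target, was 2.95-fold lower (7.90 and 6.34), and ZBTB16, read against the minimum because the wild-type array gave only 4.84, was at least 1.75-fold higher (5.98 with Y42C). Of 5 measured manganese and iron transport genes, 4 were higher and 1 lower, against 45.2% and 54.2% of all genes. Their median was 0.36, against -0.07 over all genes. In either direction 0 of the 5 passed 2-fold, against 7.46% higher and 9.80% lower. ATP2C1, the Golgi calcium and manganese pump, was highest (9.75 and 10.47), and SLC11A2, a divalent metal importer, lowest (8.69 and 8.40).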

How the data were processed

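Gene expression was measured on 2 Affymetrix arrays, 1 per line. The authors deposited 1 value per probe set and array, taken here as log2 signal from the range and 2 decimals. Per the submitters' processing notes the tool was Affymetrix Expression Console; how background, probe summary and normalization were handled, and in which version, no source used here says. Values were used as deposited. The annotation gave 1 symbol for 17709 probe sets and several for 0, and 3739 are unnamed here. Probe sets of 1 gene were averaged (20 genes, no member). All 37 members matched the gene table by Entrez identifier.

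A fold against an array below its minimum was taken against that minimum and is a lower bound. Counts past 2-fold use the deposited values. Lists are described by counts and medians beside all genes. All members and, in each related list, genes past 2-fold and the highest and lowest member were to be named; others were chosen after their values were seen, as were the levels of 10 and 14. Members and lists were chosen with earlier results of these data known. The calling code was run on simulated data with set folds and small noise, which checks the code and not real calls near 2-fold. The alternatives covered other minimums, the mean, a 1.5-fold threshold, the brightest probe set, a constant of 16, quantile normalization, centring, and a lowess fit (span 0.3) that takes out the trend on level. A value counted as moved when it changed by at least 0.1. Calculations ran in Python 3.11.15 with NumPy 2.4.6 and pandas 2.3.3, the lowess fit in statsmodels 0.14.6.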

Additional observations from a re-analysis of the deposited data

How the results depend on the processing

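With 1 array per line, no array could be left out and no spread between replicates sets the scale of these shifts. No paired analysis was possible because each group has 1 array and no result comes from a test. The metallothioneins above the minimum had positive differences under all alternatives run, and 4 or 5 of them were at least 2-fold higher under every alternative that kept the 2-fold threshold; the fifth, under centring or removal of the trend, was MT1H. Lowering the threshold to 1.5-fold raised the members counted as higher from 4 to 10 and as lower from 0 to 3, and all genes to 2106 higher and 2758 lower. The median of the SLC30 exporters changed sign, to 0.014 with the trend removed and 0.045 with no minimum. The median of the other zinc-handling genes, 0.15, turned to a mean of -0.0011, and that of the zinc enzymes to -0.04 with no minimum. Of 155 single-gene values of members under alternatives, 144 moved by less than 0.1. That count is partly fixed in advance. Each member has 1 probe set, so taking the brightest could move none. Centring shifted all of them by the same amount, under 0.1. The log base, the detection of each probe set and the sharing of probes among metallothioneins could not be checked with these values.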
